A study of Mus musculus with 2 samples.

Results

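The genes that turn farnesyl diphosphate into squalene and squalene into cholesterol were followed in mouse liver after treatment against miR-122, a microRNA that is abundant in hepatocytes. The set held 10 enzyme genes taken by name from the pathway, in the order in which their products act: Fdft1, Sqle, Lss, Cyp51, Tm7sf2, Msmo1, Nsdhl, Hsd17b7, Ebp and Dhcr7. The array annotation named 1 of them for 21 of 45101 probe sets, and 0 of the 21 were shared with another gene. All 10 genes had a probe set above the floor on low signals, which left 10003 genes on the array.

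The antagomir-122 group was 1 pool of RNA from 3 livers of mice given antagomir-122, an antagomir being a chemically modified oligonucleotide complementary to a microRNA. The control was 1 pool of RNA from 3 livers of mice given mm-antagomir-122, which the labels call scrambled. The daily dose was 80 mg/kg in either group, given on 3 days, and livers were taken 24 h after the last injection. Strain, sex and age were not given in the sources used here. Each pool was read on 1 Affymetrix array, so a value describes a pool, the spread between animals was not measured, and no test between the groups was possible. In whole liver, fewer cells of a type and less RNA per cell cannot be told apart.

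Cholesterol is built in the endoplasmic reticulum from acetyl-CoA, through mevalonate and farnesyl diphosphate, to squalene. Squalene is epoxidised and folded into lanosterol, which then loses its extra methyl groups and has its double bonds moved and reduced. Liver is a main site of this synthesis, and the transcription factor SREBP-2, which acts on target promoters together with NF-Y and Sp1, raises the enzyme genes when cells are short of sterol.

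The signals, in arbitrary units, were lower in the antagomir-122 pool for every one of the 10 genes as deposited, at 51.0% to 95.1% of the mm-antagomir-122 signal. The median log2 ratio of antagomir-122 over mm-antagomir-122 was -0.59 over the 10 genes, or 66.6% of the mm-antagomir-122 signal, beside 0.00 over the 10003 genes. Of the 10 genes, 5 were at least 1.5-fold lower (Fdft1, Sqle, Lss, Nsdhl and Dhcr7) and 0 were at least 1.5-fold higher. Among all 10003 genes, 2.62% were at least 1.5-fold lower, 5.12% at least 1.5-fold higher and 49.6% below a ratio of 1. At 1.4-fold the count lower was 6 of the 10, with Cyp51 added, beside 4.85% of all genes, and at 2-fold it was 0, beside 0.31%. The genes were also split by mean signal into 3 equal classes. In the top class 1.05% of genes were at least 1.5-fold lower, and 3 of the 7 enzyme genes in that class were (Fdft1, Nsdhl and Dhcr7). In the middle class 2.58% were, and so were Sqle and Lss among its 3 enzyme genes.

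**Figure D1:**
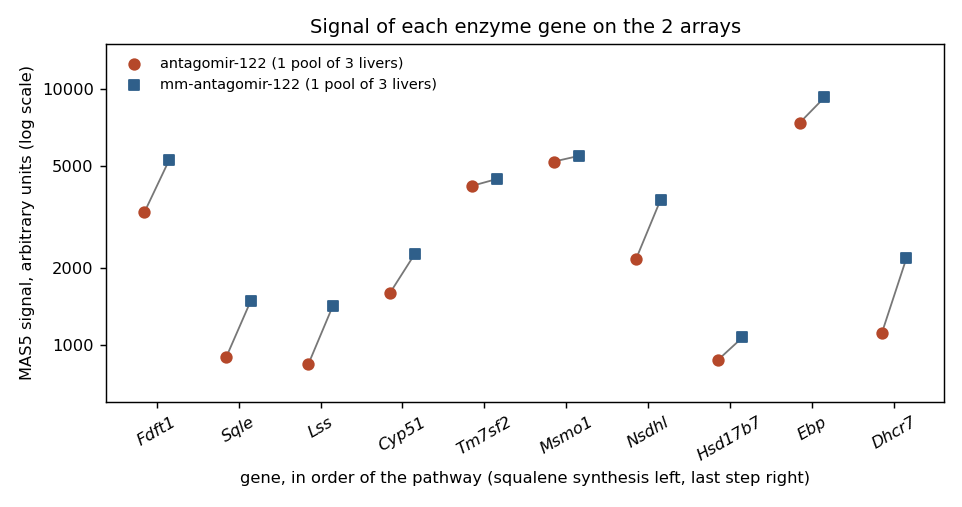
MAS5 signal of the brightest probe set of each gene on a log axis, with antagomir-122 (circles) left of mm-antagomir-122 (squares) and genes in pathway order. Each point is 1 array of 1 pool of 3 livers, without error bars since there are no replicates, and the circle is the lower point for all 10 genes, by least for Msmo1 and by most for Dhcr7. Levels of different genes are not comparable, because each probe set has its own response.

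The spread between probe sets of a gene was used as the technical spread. Its SD on the log2 scale was 0.23 in the top signal class (1813 genes with a second probe set) and 0.30 in the middle class (1459 genes). It leaves out the spread between animals and between arrays. Against the SD of its class, the difference was more than 2 SD below 0 for 6 of the 10 genes and within 1 SD of 0 for 3. The 3 were Tm7sf2, Msmo1 and Hsd17b7, each on its brightest probe set. For Hsd17b7 this depends on the probe set, since the mean log2 ratio over its 3 probe sets above the floor was -0.51. The share of all genes past 2 SD of their class was not computed, so the 6 of 10 has no background beside it. The log2 ratios of all 10003 genes had an SD of 0.34, wider than the SD of either class, so the 2 SD mark is not a test.

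How the arrays are scaled bears on the size of the difference and, for 2 genes, on its direction. The authors' values have the same trimmed mean on both arrays, so ratios are relative to the bulk of the genes. The 18 probe sets of the spiked hybridization controls had a median log2 ratio of -0.27 (SD 0.18). Scaling on them adds 0.27 to every gene, and then the median of the 10 genes was -0.31 beside 0.28 over all genes, with 1 gene, Dhcr7, still at least 1.5-fold lower, beside 0.63% of all genes under that scaling. Under that scaling Tm7sf2 and Msmo1 lay above 0, at 0.19 and 0.20. With quantile normalization or loess correction 9 genes were below 0, Msmo1 being the exception at 0.01 in both, and the same 5 genes were at least 1.5-fold lower, beside 3.21% of all genes with quantile normalization and 3.18% with loess correction.

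**Figure D2:**
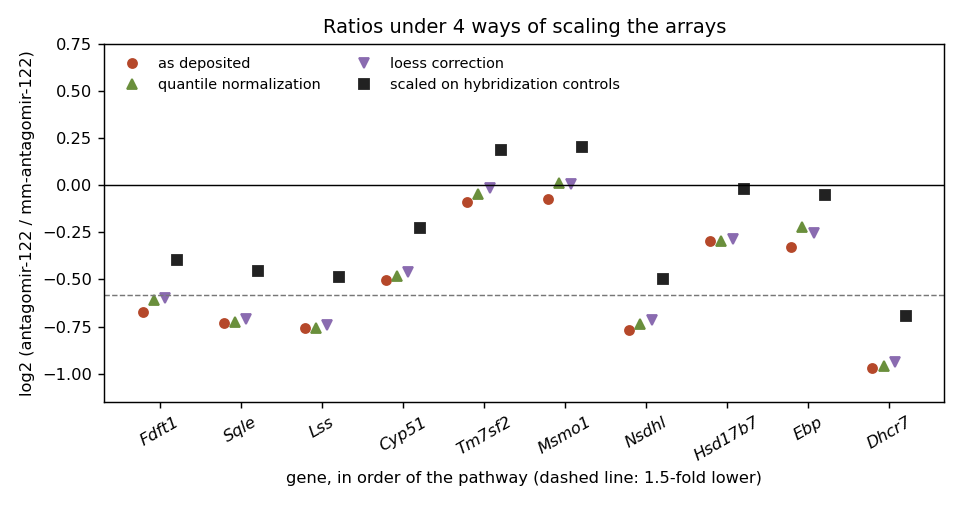
Log2 ratio of antagomir-122 over mm-antagomir-122 for each gene in pathway order, as deposited and under 3 other scalings. The hybridization control scaling (black squares) lifts every gene by the same 0.27, which puts Tm7sf2 and Msmo1 above 0 and leaves Dhcr7 alone below the dashed line at 1.5-fold lower.

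The 3 genes that carry farnesyl diphosphate to lanosterol had nearly equal ratios on their brightest probe sets. Fdft1 encodes squalene synthase, which joins a pair of farnesyl diphosphates and commits them to sterols. Its signal was 3303 in the antagomir-122 pool, against 5264 in the mm-antagomir-122 pool, 1.59-fold lower (log2 -0.67). Another Fdft1 probe set, with the suffix _x that marks possible cross-hybridisation, had 2374 in the antagomir-122 pool and 3553 in the mm-antagomir-122 pool, a log2 ratio of -0.58, just short of 1.5-fold. Sqle encodes squalene epoxidase, the oxygen-dependent step often described as rate-limiting for this branch. Its only probe set had 899 in the antagomir-122 pool, against 1493 in the mm-antagomir-122 pool, 1.66-fold lower (log2 -0.73). Lss encodes lanosterol synthase, which cyclises the epoxide to the first sterol. Its signal was 841 in the antagomir-122 pool, against 1423 in the mm-antagomir-122 pool, 1.69-fold lower (log2 -0.76). That Lss probe set carries the suffix _s, which also marks possible cross-hybridisation. The Lss probe set without a suffix had 258 in the antagomir-122 pool and 514 in the mm-antagomir-122 pool, a log2 ratio of -0.997. On their brightest probe sets the 3 genes differed among themselves by at most 0.09, against an SD of 0.38 for a difference between Fdft1 and Lss. With the Lss probe set without a suffix, Lss lay further below the other genes.

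The 5 genes placed in the demethylation stage of lanosterol, among them the reductase gene Tm7sf2, were uneven. Cyp51 encodes the cytochrome P450 that removes the methyl group at C14. Its signal was 1603 in the antagomir-122 pool, against 2269 in the mm-antagomir-122 pool, 1.42-fold lower (log2 -0.50). On its other probe set above the floor Cyp51 had 356 in the antagomir-122 pool and 539 in the mm-antagomir-122 pool, which is past 1.5-fold (log2 -0.60). Tm7sf2 encodes a sterol reductase that saturates the double bond left by Cyp51. Its signals were close, at 4189 in the antagomir-122 pool and 4452 in the mm-antagomir-122 pool (log2 -0.09).

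Msmo1, Nsdhl and Hsd17b7 encode enzymes that act in turn to strip the methyl groups at C4, and their ratios did not match. Msmo1, the methylsterol oxidase that starts the cycle, had 5211 in the antagomir-122 pool and 5480 in the mm-antagomir-122 pool (log2 -0.07). Nsdhl, the dehydrogenase that decarboxylates the product, had 2166 in the antagomir-122 pool, against 3694 in the mm-antagomir-122 pool, 1.71-fold lower (log2 -0.77). Hsd17b7 reduces the remaining ketone. Its signal was 874 in the antagomir-122 pool and 1072 in the mm-antagomir-122 pool, 1.23-fold lower (log2 -0.29). Its other probe sets above the floor were lower as well, with log2 ratios of -0.41 (694 in the antagomir-122 pool and 920 in the mm-antagomir-122 pool) and -0.84 (402 in the antagomir-122 pool and 718 in the mm-antagomir-122 pool). The probe sets of Hsd17b7 thus spanned 0.54, the widest range of the 4 genes with several, and the brightest of them gave the smallest change. The ratio of Msmo1 exceeded that of Nsdhl by 0.70, where the SD of such a difference is 0.33. Msmo1 had 1 probe set above the floor, whose suffix _a marks a design shared by several transcripts of a gene.

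The last 2 genes differed in size. Ebp encodes the isomerase that shifts the double bond within the ring. Its signal was 7395 in the antagomir-122 pool and 9272 in the mm-antagomir-122 pool, 1.25-fold lower (log2 -0.33). Dhcr7 encodes the reductase that makes cholesterol from 7-dehydrocholesterol and is mutated in the human Smith-Lemli-Opitz syndrome. Its signal was 1112 in the antagomir-122 pool, against 2180 in the mm-antagomir-122 pool, 1.96-fold lower (log2 -0.97). This was the lowest ratio of the 10 and the 39th lowest of the 10003 genes. Nsdhl ranked 104th, Lss 111th, Sqle 127th and Fdft1 169th from the lowest. Cyp51 ranked 442nd, while Ebp, Hsd17b7, Tm7sf2 and Msmo1 had 12.1%, 14.4%, 36.8% and 39.0% of genes at or below them.

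**Figure D3:**
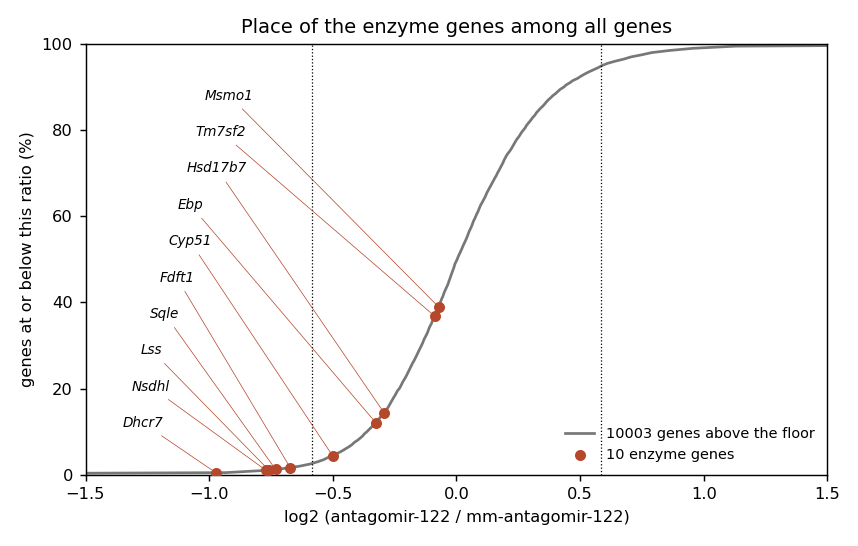
Share of the 10003 genes at or below each log2 ratio of antagomir-122 over mm-antagomir-122 (grey curve), with the 10 enzyme genes placed on it. Dotted lines mark 1.5-fold, and 5 of the genes lie left of the lower line, where 2.62% of all genes lie. Tm7sf2 and Msmo1 sit on the steep middle of the curve.

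Among themselves the 10 log2 ratios had an SD of 0.31 and a range of 0.90. Of the 45 pairs of genes, 22 differed by no more than 1 SD of a difference between probe sets and 4 by more than 2 SD. Those 4 pairs set Dhcr7 or Nsdhl against Tm7sf2 or Msmo1. The widest differences within the set thus involved the 2 genes nearest 0.

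Over single probe sets, all 15 of those above the floor had a lower signal in the antagomir-122 pool as deposited, and 8 of the 15 were at least 1.5-fold lower, beside 3.24% of the 16023 probe sets above the floor. Their log2 ratios ran from -0.997 to -0.07 with a median of -0.60. For the 4 genes with several such probe sets (Fdft1, Lss, Cyp51 and Hsd17b7), the brightest and the next differed by 0.09, 0.24, 0.10 and 0.11. Probe sets of a gene share the RNA and the array, so they repeat the reading and not the experiment.

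**Figure D4:**
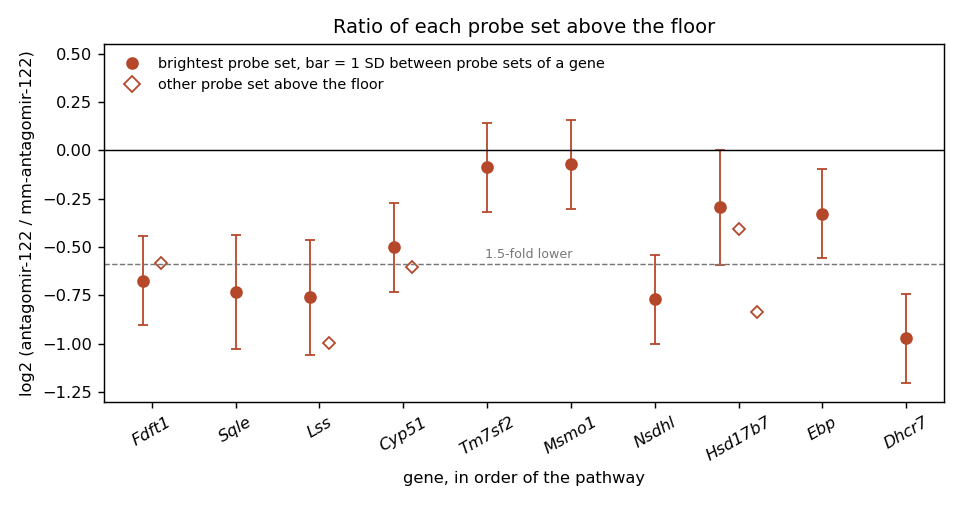
Log2 ratio of antagomir-122 over mm-antagomir-122 for the 15 probe sets above the floor, by gene in pathway order. Filled circles are the brightest probe set of a gene with a bar of 1 SD between probe sets of a gene in its signal class, and open diamonds are the others. All 15 points lie below 0, and the bars of Tm7sf2, Msmo1 and Hsd17b7 reach it.

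The promoters were read for the letters of the sterol regulatory element core and of the NF-Y and Sp1 boxes. Whether SREBP-2, NF-Y or Sp1 had a part in the lower signals was not tested. RefSeq windows of 250 bases before to 50 bases after a start (GRCm38.p6) were at hand for 8 of the 10 genes, all but Fdft1 and Sqle, with 3 starts for Dhcr7 and 1 for each other gene. Searched on both strands, the NF-Y box CCAAT was in a window of 8 of the 8 genes, against 42.7% of 8165 genes above the floor. By window it was in 8 of 10, against 37.4% of all 32851 windows. The Sp1 box GGGCGG was in a window of 8 of the 8 genes, against 68.0% of the genes above the floor. By window it was in 9 of 10, against 35.7% of all windows. The sterol regulatory element core TCACNCCA was in a window of 1 of the 8, Msmo1, against 4.63% of the genes above the floor. By window it was in 1 of 10, against 4.36% of all windows. Only these letters were searched, with N as any base, so a sterol element spelled otherwise was not counted. The other genes are thus not shown to lack one. For Dhcr7 the CCAAT matches lay at 1 of its 3 starts. The windows of the set had a median GC content of 62.2%, near the 60.7% of windows of genes above the floor. A match is a description of letters and does not show that a factor binds.

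Shown 5′ to 3′ on the gene's strand are windows of 3 genes with a ratio at least 1.5-fold lower and, for contrast, Msmo1, whose ratio was near 0. Capitals mark the NF-Y box, the Sp1 box and, in Msmo1, the sterol element core, on either strand. On the opposite strand the NF-Y box reads ATTGG and the Sp1 box reads CCGCCC. The Dhcr7 window is the start with both boxes, chosen after the matches were seen.
Lss (chr10:76531355-76531654, plus strand): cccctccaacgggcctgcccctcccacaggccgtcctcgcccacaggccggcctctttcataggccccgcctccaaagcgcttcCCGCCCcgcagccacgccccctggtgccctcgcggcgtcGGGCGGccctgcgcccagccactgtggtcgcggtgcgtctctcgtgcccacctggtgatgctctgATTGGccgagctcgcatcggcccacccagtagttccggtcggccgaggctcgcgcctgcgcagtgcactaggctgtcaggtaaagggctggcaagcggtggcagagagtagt
Nsdhl (chrX:72918271-72918570, plus strand): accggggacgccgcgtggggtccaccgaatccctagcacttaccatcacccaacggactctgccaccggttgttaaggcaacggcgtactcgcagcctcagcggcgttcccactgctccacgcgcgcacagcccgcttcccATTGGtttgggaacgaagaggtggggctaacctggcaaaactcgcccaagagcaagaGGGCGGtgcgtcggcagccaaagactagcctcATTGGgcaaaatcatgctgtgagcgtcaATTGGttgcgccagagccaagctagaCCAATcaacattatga
Dhcr7 (chr7:143829964-143830263, plus strand): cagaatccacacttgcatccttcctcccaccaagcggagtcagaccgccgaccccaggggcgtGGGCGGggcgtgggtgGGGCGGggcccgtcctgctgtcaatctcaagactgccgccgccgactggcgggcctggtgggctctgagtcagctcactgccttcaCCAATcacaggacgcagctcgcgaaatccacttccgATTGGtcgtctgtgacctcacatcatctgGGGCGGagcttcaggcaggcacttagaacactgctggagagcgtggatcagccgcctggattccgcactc
Msmo1 (chr8:64733529-64733828, minus strand): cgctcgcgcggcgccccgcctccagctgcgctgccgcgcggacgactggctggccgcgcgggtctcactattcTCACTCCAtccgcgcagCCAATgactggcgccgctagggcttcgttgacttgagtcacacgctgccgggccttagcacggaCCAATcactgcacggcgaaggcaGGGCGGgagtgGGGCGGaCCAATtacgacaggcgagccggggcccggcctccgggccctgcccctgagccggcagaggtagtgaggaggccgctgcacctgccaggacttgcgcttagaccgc
In Lss the NF-Y box starts 62 bases before the transcript start, and in Dhcr7 the boxes start 85 and 49 bases before it. Nsdhl has 4 such boxes and Msmo1 has 3, so the 2 genes with ratios of -0.77 and -0.07 both hold several. Tm7sf2, the other gene near 0, has a box 47 bases before its start, and Cyp51 has one 29 bases before. With both boxes in all 8 genes read, and Fdft1 and Sqle without a window, their presence could not be set against the ratios.

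Other genes of sterol synthesis give the setting. Of 8 listed genes of the mevalonate arm, which feeds farnesyl diphosphate to Fdft1, 6 were measured above the floor, all 6 had a lower signal in the antagomir-122 pool as deposited (5 when scaled on the hybridization controls, Pmvk being the exception), and 3 were at least 1.5-fold lower (2 under that scaling). The median log2 ratio was -0.59 for the 10 enzyme genes and -0.61 for the mevalonate arm. Fdps, the enzyme just before Fdft1, had 3201 in the antagomir-122 pool and 7138 in the mm-antagomir-122 pool (log2 -1.16). Mvk and Idi1 had log2 ratios of -1.07 and -0.73. The other 3 measured genes of the arm were short of 1.5-fold on their brightest probe sets. Hmgcs1, the synthase that makes HMG-CoA, had a log2 ratio of -0.50 there, while its other 3 probe sets above the floor were past 1.5-fold, from -0.89 to -0.61. Mvd and Pmvk, which act between Mvk and Idi1, had -0.31 and -0.25.

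Other enzymes of the late steps were closer to 0, and both measured ones turned above 0 when scaled on the hybridization controls. Lbr, which has the same sterol reductase activity as Tm7sf2, had 1226 in the antagomir-122 pool and 1252 in the mm-antagomir-122 pool (log2 -0.03). Sc5d, the desaturase that makes 7-dehydrocholesterol, had 8479 in the antagomir-122 pool and 9918 in the mm-antagomir-122 pool on its brightest probe set (log2 -0.23). Its other probe sets went the other way, at 0.85 and 0.30, so Sc5d has no settled direction. Of 3 listed genes of this kind, 2 were measured and 0 were past 1.5-fold in either direction.

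The partners that hand electrons to these enzymes or bind them were closer to 0 than the set. Of 7 listed, 6 were measured, 0 were past 1.5-fold and the median was -0.12. Ratios were below 0 for 5 of the 6 as deposited, 4 with quantile normalization, 3 with loess correction and 2 when scaled on the hybridization controls. Cyb5b, a form of cytochrome b5, had log2 ratios of -0.37, -0.37 and -0.38 on its 3 probe sets. Cyb5r3, the reductase of cytochrome b5, had -0.30 on its brightest. Erg28, a scaffold that holds the C4 demethylation enzymes, had -0.20, and Sec14l2, which stimulates Sqle, had 0.22.

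Genes that control the pathway had a median of -0.07 over the 8 measured of 10 listed (0.20 when scaled on the hybridization controls), and 0 were past 1.5-fold. Srebf2, which encodes SREBP-2, had 589 in the antagomir-122 pool and 596 in the mm-antagomir-122 pool (log2 -0.02), with another probe set at -0.35. Stard4, a sterol carrier gene and SREBP-2 target, had log2 ratios of -0.34, -0.36 and -0.26 on its 3 probe sets. Insig1, which retains SREBP in the endoplasmic reticulum and is itself a target, had 0.12. The array reads transcripts and not the cleavage of the SREBP protein. With 1 array per group, the differences between these lists and the 10 enzyme genes were not tested.

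**Figure D5:**
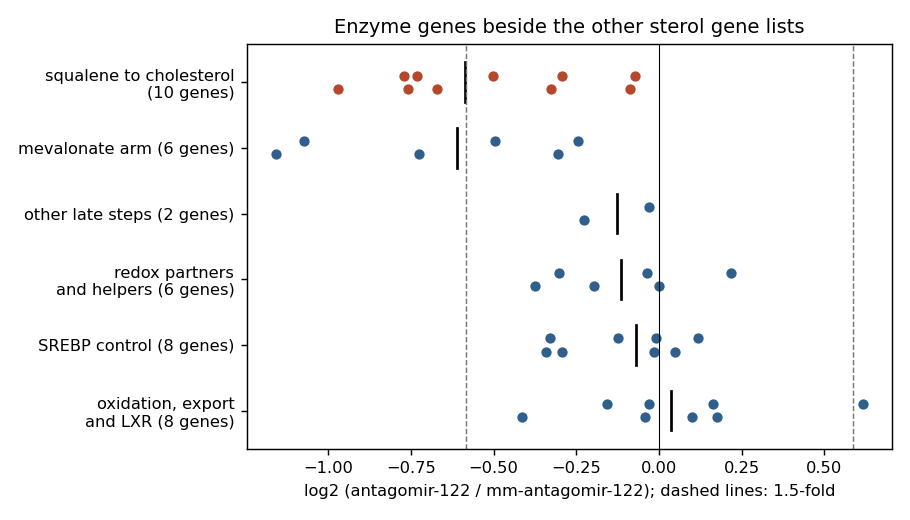
Log2 ratios of antagomir-122 over mm-antagomir-122 on the brightest probe set of each gene, for the 10 enzyme genes (top row) and 5 other lists, with a black bar at each median. The medians are -0.59 for the enzyme genes and -0.61 for the mevalonate arm, and lie between -0.13 and 0.04 for the other 4 lists. Dashed lines mark 1.5-fold.

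Cell type markers were read beside these values. Of 10 listed hepatocyte markers 9 were measured, with signals of at least 7418 in the antagomir-122 pool and 7801 in the mm-antagomir-122 pool. They summed to 226479 in the antagomir-122 pool and 227186 in the mm-antagomir-122 pool, with a median log2 ratio of -0.02. The median turned to 0.03 with quantile normalization, 0.05 with loess correction and 0.26 when scaled on the hybridization controls, with 9 of 9 above 0 in the last. Many of these markers are near the top of the signal range, where a difference can be hidden. Neutrophil markers summed to 8013 in the antagomir-122 pool and 2451 in the mm-antagomir-122 pool (6 of 7 above the floor, 5 at least 1.5-fold higher, S100a8 and S100a9 the most, at log2 2.22 and 2.14). Elane, the other neutrophil marker measured, went the other way, with 261 in the antagomir-122 pool and 323 in the mm-antagomir-122 pool (log2 -0.31). Of the 5 that were higher, Mpo had 400 in the antagomir-122 pool and 164 in the mm-antagomir-122 pool. Ltf had 368 in the antagomir-122 pool and 198 in the mm-antagomir-122 pool. For Mpo and Ltf the mm-antagomir-122 signal was below the floor, so the size of their fold is uncertain. Kupffer cell and macrophage markers summed to 61550 in the antagomir-122 pool and 46627 in the mm-antagomir-122 pool (10 of 10 above the floor, 2 at least 1.5-fold higher, C1qc and Adgre1, at log2 0.69 and 0.60). Lymphocyte markers summed to 6526 in the antagomir-122 pool and 3964 in the mm-antagomir-122 pool (6 of 8 above the floor, 3 at least 1.5-fold higher, Ighm the most, at log2 1.09). That Ighm value is from its brightest probe set. Its other probe sets above the floor had log2 ratios of 0.27, 0.42 and 0.08, short of 1.5-fold. The 6 measured lymphocyte markers were all above 0 as deposited, and 5 of them with quantile normalization or loess correction. As deposited, 5.12% of all genes above the floor were at least 1.5-fold higher. Scaled on the hybridization controls, 8 of the Kupffer cell and macrophage markers, 5 of the lymphocyte markers and 5 of the neutrophil markers were at least 1.5-fold higher, beside 16.9% of all genes. These counts include Mpo, Ltf and the lymphocyte marker Cd79a. As deposited, Cd79a had 279.5 in the antagomir-122 pool and 207.5 in the mm-antagomir-122 pool, the latter below the floor. The part of these cells in the lower enzyme signals was not tested.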

How the data were processed

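The deposited values are linear intensity readings of 2 Affymetrix arrays, 1 per group, which the authors made with MAS5 (version not given) per the submitters' processing notes. Samples were grouped by title. Gene names came from the platform annotation, which can be old, through RefSeq gene identifiers (34741 of 34945 single-gene probe sets matched). No detection calls were used.

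Ratios are log2 of antagomir-122 over mm-antagomir-122 intensity, with no pseudocount. Probe sets were kept at or above the 60th percentile of mean log2 signal, a signal of 238, and the brightest stood for its gene. With 1 array per group there is no test and no interval, and a gene past 1.5-fold is counted as lower or higher. The spread between probe sets is the SD of differences between a gene's 2 brightest probe sets over the square root of 2. The steps were tested on simulated data.

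Every enzyme gene is named. The rule also names the late steps, genes past 1.5-fold in the mevalonate, partner and control lists, and up to 2 genes of largest ratio in each remaining list. Genes named outside that rule (Cyb5b, Cyb5r3, Erg28, Sec14l2, Srebf2, Stard4, Insig1, Pmvk, Mvd and Hmgcs1) were chosen after their values were seen. Members and lists were chosen with earlier results of these data known. Protein sequences and likeness of pattern between genes were not analysed here. Alternatives covered scaling, floor, pseudocount, probe set choice and threshold. Python 3.11.15, pandas 2.3.3 and statsmodels 0.14.6 were used.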

Additional observations from a re-analysis of the deposited data

How the results depend on the processing

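Across 11 other settings of scaling, floor, pseudocount and probe set choice, the median log2 ratio of the enzyme genes lay between -0.67 and -0.31, and 0 genes were at least 1.5-fold higher in any. The same 5 genes were at least 1.5-fold lower in 10 of the 11. The floor settings and the counting of probe sets with several genes left every enzyme gene ratio unchanged. Those settings could not alter the count, so they add nothing to the 10. Scaled on the hybridization controls the count was 1, because that scaling adds 0.27 to every ratio, and the share of all genes was 0.63% in place of 2.62%. At a threshold of 2-fold the count was 0, beside 0.31% of all genes, and at 1.4-fold it was 6, with Cyp51 added, beside 4.85%. Of 109 ratios of single genes under these settings, 102 moved by less than 1 SD between probe sets, and the 7 that moved by more were all under the hybridization control scaling. The 102 include the ratios that the floor settings and the counting of probe sets with several genes could not move. Median centring moves every ratio by only 0.003. Averaging cannot move a gene with 1 probe set above the floor, and leaving out suffixed probe sets cannot move a gene whose brightest has no suffix. The control shift of 0.27 exceeds the SD of the top signal class (0.23) and not that of the middle class (0.30). Which genes made up the 7 was therefore set by signal class alone. Without suffixed probe sets Msmo1 had no value and Lss had -0.997. No paired analysis was possible because each group had 1 array, and leaving out a replicate was not possible for the same reason. Signal over background could not be judged without detection calls.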

Other observations

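The 6 probe sets of the enzyme genes under the floor had signals below it on both arrays, so no fold is given for them. Msmo1 had 5.8 in the antagomir-122 pool and 75.4 in the mm-antagomir-122 pool on the dimmest of these. Lss had 142 in the antagomir-122 pool and 90.8 in the mm-antagomir-122 pool, and Hsd17b7 had 173 in the antagomir-122 pool and 129 in the mm-antagomir-122 pool. Cyp51 had 143.5 in the antagomir-122 pool and 154 in the mm-antagomir-122 pool. Both dim probe sets of Fdft1 were below the floor too, at 27.8 to 35 over both arrays. Of the 6 log2 ratios, 4 were above 0 and 2 below, unlike the 15 above the floor.

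Genes that use, oxidise or export cholesterol had a median log2 ratio of 0.04 over 8 measured genes, with 4 above 0 and 4 below as deposited. With quantile normalization or loess correction 6 were above 0, and 7 when scaled on the hybridization controls. Cyp7a1, which starts bile acid synthesis, was the member past 1.5-fold, with 5606 in the antagomir-122 pool and 3656 in the mm-antagomir-122 pool (log2 0.62) on its brightest probe set and 0.27 on the other. Cyp39a1, an oxysterol hydroxylase, had 1332 in the antagomir-122 pool and 1777 in the mm-antagomir-122 pool (log2 -0.42). As deposited, endothelial markers had a median of -0.11 over 6 genes (0.17 when scaled on the hybridization controls), of which Tek was past 1.5-fold, with 386 in the antagomir-122 pool and 641 in the mm-antagomir-122 pool (log2 -0.73). As deposited, stellate and fibroblast markers had a median of 0.13 over 6 genes, while the median of 11 housekeeping genes was 0.03.

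Cyb5r3 had, on a dimmer probe set, 2104 in the antagomir-122 pool and 3616 in the mm-antagomir-122 pool (log2 -0.78), past 1.5-fold, while the other 2 above the floor had -0.30 and -0.28.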
